A study of Homo sapiens with 27 samples.

Results

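Cytoplasmic RNA from cells depleted of TPR with the shRNA called TPR A was compared with cytoplasmic RNA from control cells, using 6 of the 27 libraries of an RNA Frac-Seq experiment, 3 for each group. Frac-Seq separates cells into a nuclear and a cytoplasmic/ER fraction with detergent and sequences the RNA of each. The cells were U2OS, a human osteosarcoma line. TPR was depleted for 5 days with shRNA delivered by lentivirus and puromycin selection, and the control cells were control knockdowns whose shRNA sequence was not given in the sources used here. The virus was made in HEK293T cells, and the depleted cells were selected populations, not clones. A second shRNA against TPR, TPR D, gave 3 more cytoplasmic libraries, and nuclear and total RNA made up the remaining 18. RNA was selected for poly(A) tails before sequencing. The genes compared were the 14611 of 34464 in the table whose mean over the 27 libraries was above 1 FPKM, that is fragments scaled by transcript length and by the size of the library, with the 13 genes of the mitochondrial genome left out.

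TPR is a large coiled-coil protein that forms the nuclear basket, the set of filaments on the inner face of the nuclear pore. Messenger RNAs reach the cytoplasm through the pore after the TREX complex and the receptor NXF1 have been loaded onto them, and splicing helps this loading. Transcripts of short genes with few or no introns can depend more on other features of the RNA, and replication-dependent histone mRNAs, which mostly lack introns and normally end in a stem-loop in place of a poly(A) tail, are the classical example.

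The level of a gene in the cytoplasmic fraction is relative to the other RNAs of the same library, so the overall amount of cytoplasmic RNA was not measured, and fewer cells carrying a transcript cannot be told apart from less of it per cell. From the steps between low values, 1 read on a transcript of 1 kb was worth 0.0249 to 0.0316 FPKM in the control libraries and 0.0222 to 0.0282 FPKM in the TPR A libraries, so TPR A was sequenced at a similar or slightly higher depth. The 10 mesenchymal markers checked were above 1 FPKM in all 6 libraries, and VIM, which encodes the filament protein vimentin, stood at 1319.5 FPKM or more. The 6 leukocyte markers were below 1 FPKM in every library, with HBB listed at 0. Of 7 epithelial markers, 2 were above 1 FPKM in each control and 2 to 4 in the TPR A libraries, with a summed level of 6.82 to 9.51 FPKM and 9.37 to 14.0 FPKM. Of 5 HEK293T markers, 1 or 2 were above 1 FPKM in controls and 1 in each TPR A library, and NEFM was listed at 0. Transcripts of the mitochondrial genome, which mark cytoplasm, made up 26.5% to 35.8% of all FPKM in the control libraries, 28.1% to 37.9% in the TPR A libraries and 0.774% to 2.42% in 8 nuclear libraries, the nuclear library labelled control replicate 2 aside. That nuclear library and the total library of the same culture stood apart from their labels. They entered the mean over 27 libraries by which the genes were chosen, and the fit of all 27 libraries. In no other way did they enter the 9-library fit or the values of the cytoplasmic libraries. Each result from total or nuclear RNA is given first with them and then without them.

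TPR mRNA was low in the cytoplasm after the knockdown. The control libraries held 2.97, 2.26 and 3.66 FPKM and the TPR A libraries 0.445, 0.132 and 0.689 FPKM. The groups did not overlap, and the TPR A mean of 0.422 ± 0.279 FPKM (SD, n = 3) was 14.3% of the control mean of 2.96 ± 0.701 FPKM (SD, n = 3). On the log2(FPKM + 0.1) scale used throughout, the difference was −2.66 (SE 0.51), with a Benjamini-Hochberg adjusted p of 0.132 in the limma fit of the 9 cytoplasmic libraries, and an exact permutation test over the 6 libraries gave p = 0.1, the smallest that 3 against 3 allows (two-sided). When the spread was estimated from 25 libraries of all fractions, with the pair of doubtful control replicate 2 libraries left out, the adjusted p was 0.00132. TPR D gave −2.60 on the same scale against the same controls. TPR lies on chr1:186280784-186344825 of GRCh37 on the minus strand, and the other basket genes did not pass the test in either fit: NUP153, which anchors TPR to the pore, differed by 0.27 and NUP50, which binds NUP153, by 0.28.

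In the 9-library fit, 9 genes passed an adjusted p of 0.05, which is 0.0616% of those tested, 7 higher (0.0479%) and 2 lower (0.0137%) with TPR A. The highest level of the 7 in TPR A cells was that of HMOX1, which encodes heme oxygenase 1, the inducible enzyme that degrades heme. HMOX1 stood at 57.7, 57.98 and 60.05 FPKM in the control libraries and at 239.8, 518 and 460.1 FPKM in the TPR A libraries. The control values were within a few FPKM of each other and the lowest TPR A library was far above them. HMOX1 rose by 2.76 (SE 0.27, adjusted p 0.0141, limma), from a mean of 58.6 ± 1.27 to 406.0 ± 147 FPKM (SD, n = 3 each). In total RNA the difference was 2.78, and 3.09 without control replicate 2. HMOX1 has 4 exons at chr22:35776354-35790207 on the plus strand. TPR D libraries held 83.7, 119.6 and 96.4 FPKM, a difference of 0.80 from the same controls.

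LCTL, a klotho-family protein related to lactase, stood at 5.82, 4.44 and 4.63 FPKM in control and at 17.5, 18.9 and 15.4 FPKM with TPR A, so that every TPR A library was above every control library. LCTL rose by 1.83 (SE 0.21, adjusted p 0.0206, limma) and differed by 1.81 in total RNA, and by 1.62 without control replicate 2. MIR100HG, the lncRNA that hosts miR-100, let-7a-2 and miR-125b-1, was at 1.72, 1.63 and 1.60 FPKM in control and at 5.11, 4.401 and 7.21 FPKM with TPR A. It rose by 1.71 (SE 0.24, adjusted p 0.0476, limma), but with all 27 libraries in the fit the adjusted p was 0.0582. The differences of MIR100HG in nuclear and total RNA were 0.25 and 1.77, and without control replicate 2 they were 0.54 and 1.05. CRYGS, a crystallin of the eye lens whose annotation overlaps the gene TBCCD1, was listed at 0, 0.0353 and 0.0283 FPKM in control and at 3.83, 1.46 and 0.779 FPKM with TPR A. The control values of CRYGS are those of single reads, so the fitted rise of 3.88 (SE 0.53, adjusted p 0.0415, limma) depends on the constant added before the logarithm and ranged from 1.44 to 6.01 over the settings tried.

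The remaining 3 higher genes have no assigned product and were listed at 0 in all 3 control libraries. In the 6 libraries compared, their level therefore came only from the TPR A group. As for CRYGS, their fitted rises depend on the constant added, and none of the 3 passed with 1 FPKM added before the logarithm. ENSG00000273338, a single-exon lncRNA of 209 nucleotides at chr1:78470030-78470238 on the minus strand, within DNAJB4 and GIPC2 on the other strand, was at 45.7, 2.52 and 16.9 FPKM with TPR A. The kit marks strand, but whether the quantification used it is not given in the sources used here. Reads of these overlapping genes may therefore not be told apart. The transcript of ENSG00000273338 is also shorter than the length subtracted from each transcript when the depth was read. Its FPKM could therefore not be turned into a number of reads, and these values may rest on few reads. ENSG00000257622, which overlaps JAG2 and NUDT14 at chr14:105618531-105647531, was at 0.767, 2.04 and 0.735 FPKM with TPR A, while its difference in total RNA was −2.14, and −2.37 without control replicate 2. ENSG00000267637, which the annotation used here does not hold, was at 3.29, 2.09 and 1.75 FPKM. ENSG00000257622 and ENSG00000267637 did not pass in the 25-library fit, with adjusted p of 0.216 and 0.0938 (limma). With the 1 FPKM minimum taken over the control and TPR A cytoplasmic libraries only, ENSG00000257622 was no longer among the genes called.

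Both lower genes encode proteins. TMEM158, a membrane protein whose gene has no intron and lies at chr3:45265958-45267779 on the minus strand, stood at 22.3, 11.4 and 23.3 FPKM in control and at 3.52, 3.15 and 4.32 FPKM with TPR A. The lowest control library was well above the highest TPR A library. TMEM158 fell by 2.24 on the log2 scale (SE 0.28, adjusted p 0.0299, limma), and the difference in total RNA was −2.07, and −2.55 without control replicate 2. PTPMT1, a phosphatase of the inner mitochondrial membrane needed to make cardiolipin, stood at 120.1, 141 and 86.7 FPKM in control and at 37.3, 30.8 and 32.7 FPKM with TPR A. PTPMT1 fell by 1.72 on the log2 scale (SE 0.21, adjusted p 0.0266, limma), with a difference of −1.24 in total RNA (−1.36 without control replicate 2). For TPR D in the cytoplasm PTPMT1 differed by −0.25.

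**Figure D1:**
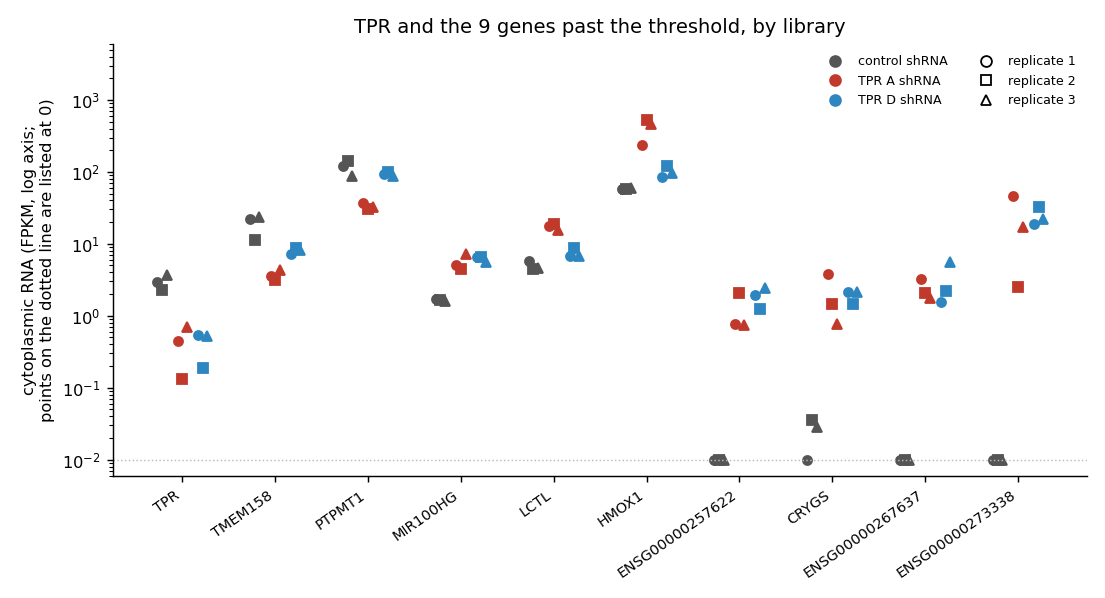
FPKM of the genes that passed the 9-library test, in each cytoplasmic library of control, TPR A and TPR D cells, on a logarithmic axis. HMOX1 lies at 57.7 to 60.05 FPKM in control and at 239.8 to 518 FPKM with TPR A, while TMEM158 and PTPMT1 lie lower in every TPR A library than in any control library.

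The number called depended on single libraries, and the genes called were not always among the 9. Without control replicate 2 only 1 gene passed, without control replicate 1 or TPR D replicate 3 only 2, and without TPR A replicate 1 or 2 the count was 3 and 4, while 5 passed without control replicate 3 or TPR D replicate 1 and 16 without TPR D replicate 2. The 2 called without control replicate 1 were not among the 9, and of the 9 called without TPR A replicate 3 only 4 were. An unadjusted p below 0.05 was reached by 1446 genes (9.9%), with 753 higher (5.15%) and 693 lower (4.74%). Among all genes tested, 932 were higher in every TPR A library than in any control library (6.38%) and 1412 were lower (9.66%). The median change over all genes was −0.01.

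**Figure D2:**
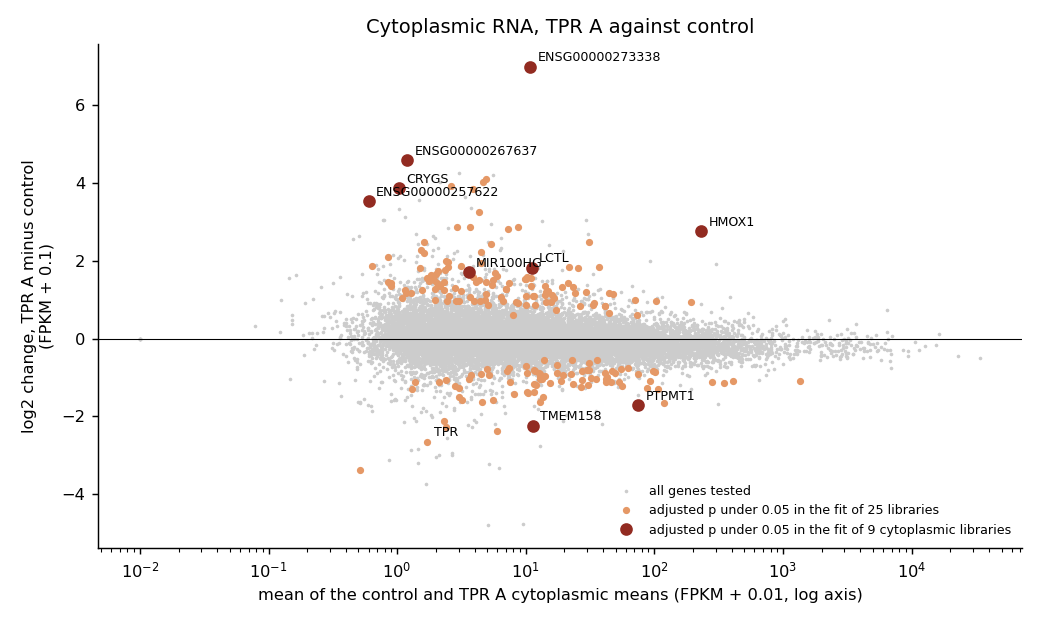
Log2 difference between TPR A and control cytoplasm (vertical axis) against the mean level over the 6 libraries in FPKM (horizontal logarithmic axis), 1 point for each of the 14611 genes tested, with the genes that passed each fit marked. The median gene lies at −0.01 and few genes lie far from 0.

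The fit of 25 libraries, which has the same groups but takes the spread between replicates from all 3 fractions, called 200 genes (1.37% of those tested), 116 higher (0.794%) and 84 lower (0.575%). Of the 200, 178 were mRNAs and 13 lncRNAs, and in 199 the 3 TPR A libraries did not overlap the 3 controls. The 200 were picked by this fit from the same cytoplasmic values, so the lack of overlap is no separate check of the calls. This fit counts the fractions of 1 culture as independent libraries, although they come from the same cells. With the 9 cultures as correlated blocks, an alternative chosen after seeing the data, the correlation was 0.338 and 216 genes were called, of which 182 were among the 200. The 6 libraries alone gave 4. With all 27 libraries 91 genes passed (0.623%), 58 higher (0.397%) and 33 lower (0.226%). The genes named from the 25-library fit, the largest called changes or members of the gene groups described here, were chosen after their values were seen.

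Among the largest rises in this fit was LGALS7B, a galectin of stratified epithelium, with a difference of 4.11. LGALS7B has a near-identical copy and is uncertain for that reason. PRSS23-AS1, an antisense lncRNA, differed by 4.04, and DEUP1, a protein of centriole assembly in multiciliated cells, by 3.86. In control LGALS7B was at 0.776, 0 and 1.49 FPKM and DEUP1 at 0.217, 0.0373 and 1.54 FPKM. As for CRYGS, these rises depend on the constant added. Over the settings tried they ran from 2.58 to 5.29 for LGALS7B, from 2.6 to 4.92 for PRSS23-AS1 and from 2.25 to 4.85 for DEUP1. S100A1, a calcium-binding protein, stood at 0.915, 0.633 and 0.614 FPKM in control and at 11.8, 5.14 and 6.87 FPKM with TPR A, a difference of 3.26 (adjusted p 0.0376, limma, 25 libraries), but with correlated cultures the adjusted p was 0.0531. FOLR1, a folate receptor of epithelia, went from 1.30, 0.893 and 3.40 FPKM to 9.33, 10.1 and 7.29 FPKM, a difference of 2.44 (adjusted p 0.0135, limma). SPINK6, a protease inhibitor of skin, differed by 2.83, ODAPH, a protein of tooth enamel formation, by 2.49, and TEX37, a testis-expressed gene, by 2.47. SYTL1, a vesicle-trafficking protein, differed by 2.88, and HSD17B3, the enzyme that makes testosterone in testis, by 2.88. The controls of HSD17B3 were at 1.62, 0.141 and 0.676 FPKM, and its rise ran from 1.79 to 3.53 over the settings tried. The summed level of the 7 epithelial markers given above was higher in 2 of the 3 TPR A libraries than in every control. Of these markers 2 were among the genes tested, with none called in either limma fit. Their median deviation overlapped, at −0.28, 0.30 and −0.02 in control and −0.01, 0.11 and 0.50 with TPR A. The part of the markers in the changes of the genes above was not tested.

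Among the lower genes, C4A and C4B, the near-identical genes of complement component 4, differed by −2.27 and −2.12, but reads cannot be assigned securely between them. MUC1, a membrane mucin, stood at 10.9, 5.56 and 9.26 FPKM in control and at 2.94, 2.83 and 2.09 FPKM with TPR A, a difference of −1.59 (adjusted p 0.00362, limma, 25 libraries), beside −1.50 for TPR D. CCDC85B, a small coiled-coil protein from an intronless gene, stood at 129, 106 and 141 FPKM in control and at 44.6, 53.9 and 52.5 FPKM with TPR A, a difference of −1.27 (adjusted p 0.0166, limma). IFRD2, an interferon-related developmental regulator, was at 186, 218 and 138 FPKM in control and 54.2, 67.9 and 44.8 FPKM with TPR A, with −1.65 in the cytoplasm for TPR A and −0.17 for TPR D (adjusted p for TPR A 0.125 with 9 libraries and 0.00188 with 25, limma). C1orf216 had 21.99, 21.6 and 20.2 FPKM in control against 7.91, 9.61 and 10.6 FPKM, a difference of −1.14 (adjusted p 0.0819 with 9 libraries and 0.000224 with 25, limma).

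Next are the genes of the export machinery, which carries RNA out of the nucleus. Of 29 genes for mRNA export factors, none passed in the 9-library or the 25-library limma fit, and their median change was −0.02. With a lower value, 1 had an unadjusted p below 0.05, NXF1 (3.45%, against 4.74% of all genes). NXF1, the main export receptor, stood at 45.3, 40.6 and 36.8 FPKM in control and at 22.05, 33.9 and 19.4 FPKM with TPR A, a difference of −0.70 (adjusted p 0.437, limma). All 3 TPR A libraries were below the 3 controls, but replicate 2 lay close to them. Among 29 transport receptors and Ran factors, RCC1 fell in the 25-library fit (3.45%, against 0.575% of all genes) and no other passed. RCC1, the exchange factor that loads Ran with GTP on chromatin, stood at 99.1, 104 and 93.0 FPKM in control and at 46.3, 59.1 and 48.1 FPKM with TPR A, a difference of −0.91 (adjusted p 0.0126, limma, 25 libraries). The 26 other nuclear pore genes had a median of −0.12, and none passed in either limma fit. With a lower value, 1 had an unadjusted p below 0.05 (3.85%, against 4.74% of all genes). The differences were −0.52 for NUP205 of the inner ring and −0.52 for NUP214 of the cytoplasmic face.

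The mRNAs were then grouped by gene structure, which was known for 12333 of them. The 201 intronless mRNAs had a median change of −0.26, and 31.8% of them had a value above 0, against −0.01 and 49.3% for the 12132 mRNAs with introns. Of the intronless mRNAs 9 were lower (4.48%) and 1 higher (0.498%) in the 25-library fit, beside 0.575% and 0.794% over all genes. In the 9-library fit 1 was lower, TMEM158, where 0.0137% of all genes were called lower. In 55 of the 201 (27.4%) every TPR A library was below every control library, against 9.66% of all genes tested, and in 7 (3.48%) it was above, against 6.38%. Per library, the median deviation of the intronless mRNAs from the control mean was −0.03, −0.01 and 0.02 in the controls and −0.27, −0.19 and −0.17 with TPR A. The groups did not overlap, and the median without histone genes, over 181 mRNAs, was −0.28.

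TSPYL4, an intronless gene related to a testis-specific nucleosome assembly protein, stood at 6.15, 5.77 and 9.24 FPKM in control and at 2.78, 1.69 and 1.96 FPKM with TPR A. Its difference was −1.63 (adjusted p 0.131 with 9 libraries and 0.00117 with 25, limma). UBQLN2, an intronless ubiquitin-binding shuttle of the proteasome, was at 15.7, 17.5 and 18.4 FPKM in control and at 9.44, 8.03 and 8.92 FPKM with TPR A, a difference of −0.92 (adjusted p 0.0183, limma, 25 libraries). For mRNAs with 2 exons the median was −0.09, for 3 or 4 exons −0.06, for 9 to 16 exons 0.01 and for more than 16 exons 0.03. JUN, an intronless gene for a subunit of the AP-1 transcription factor, moved the other way, with 29.7, 32.8 and 27.9 FPKM in control and 54.6, 50.5 and 52.9 FPKM with TPR A, a difference of 0.85 (adjusted p 0.0232, limma, 25 libraries).

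**Figure D3:**
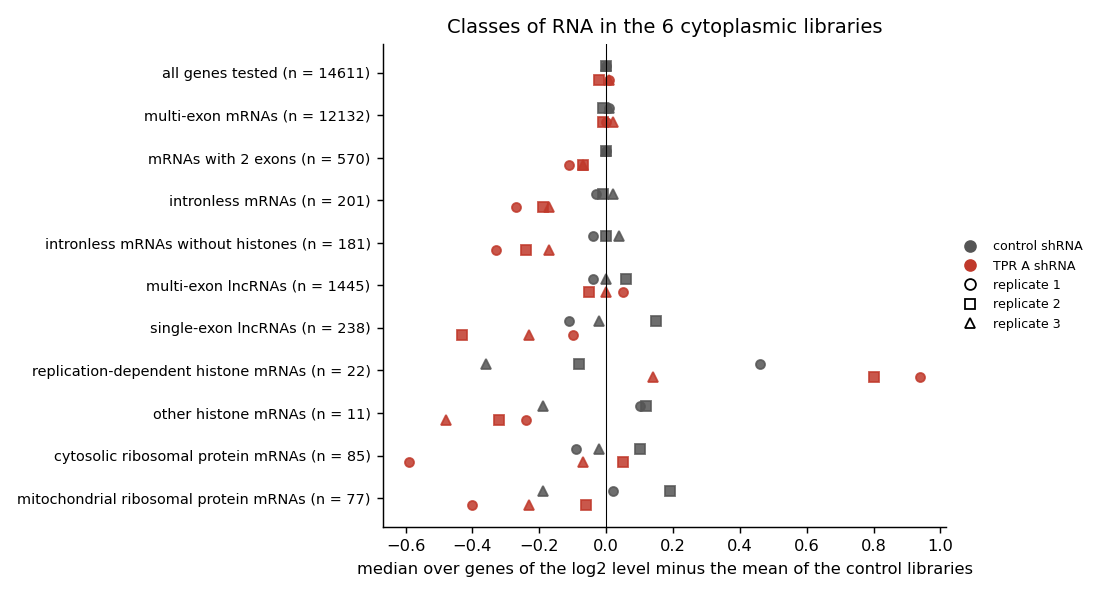
Median log2 deviation from the control mean for classes of RNA (rows of the plot), with 1 point for each cytoplasmic library of control and TPR A cells. The intronless mRNAs lie at −0.27 to −0.17 with TPR A and at −0.03 to 0.02 in control.

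By the length of the unspliced transcript, the 3289 mRNAs from genes under 10 kb had a median change of −0.15, and the 3408 from genes over 50 kb had one of 0.11. Of the short genes 32.7% had a value above 0, and of the long genes 62.6%. In the 25-library fit 28 short genes were higher (0.851%) and 42 lower (1.28%), and 38 long genes were higher (1.12%) and 8 lower (0.235%), beside 0.794% and 0.575% of all genes. This difference rested on 2 of the 3 TPR A libraries. The median deviation of the short genes was −0.28 and −0.21 in replicates 1 and 3 and 0.03 in replicate 2, where controls stood at 0.03, 0.01 and −0.04, and that of the long genes was 0.23 and 0.21 in replicates 1 and 3 and −0.08 in replicate 2.

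Over the 12333 mRNAs the rank correlation of the change with gene length was 0.262, with the genes sharing libraries and depth. Per library, Spearman's rho of the deviation from the control mean with length was 0.358, −0.0713 and 0.293 for TPR A and −0.0966, −0.11 and 0.169 for control. The change also went with the control level, at a rank correlation of −0.339, and per library that was −0.418, 0.0465 and −0.383 for TPR A and 0.121, 0.206 and −0.275 for control. Length and level went together, with a median control level of 26.6 FPKM for the short and 7.99 FPKM for the long genes, and the part of level in the length values was not tested.

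**Figure D4:**
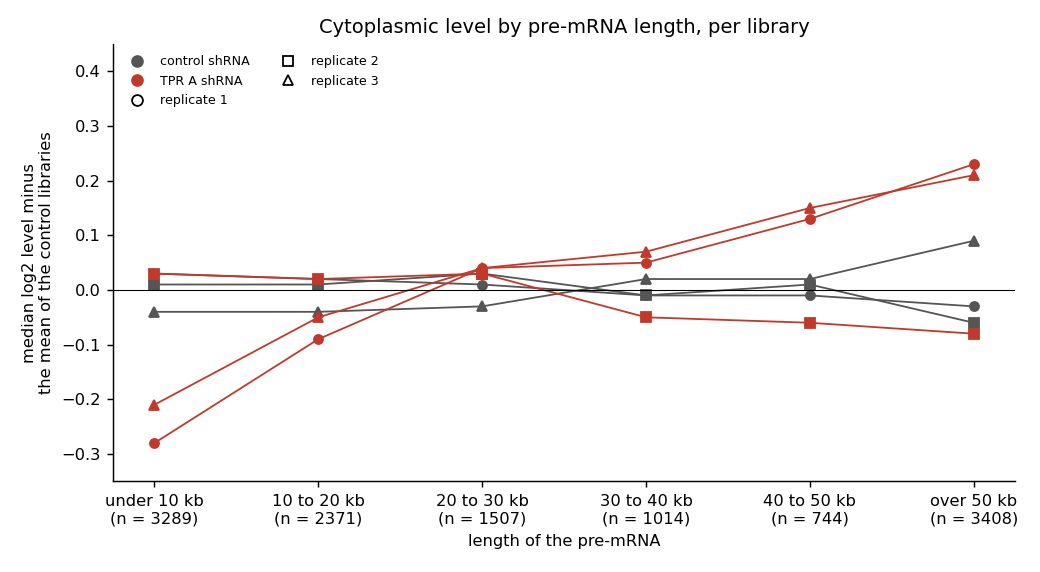
Median log2 deviation from the control mean (vertical axis) by length class of the unspliced transcript in kb (horizontal axis), 1 line for each of the 6 cytoplasmic libraries. The lines of TPR A replicates 1 and 3 run from −0.28 and −0.21 for genes under 10 kb to 0.23 and 0.21 for genes over 50 kb, and that of replicate 2 from 0.03 to −0.08.

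The 1689 lncRNAs had a median of −0.04, and the part of them with a single exon, 238 lncRNAs, one of −0.23. Of the single-exon lncRNAs, 48 were lower in every TPR A library than in any control library (20.2%, against 9.66% of all genes). In the other direction 4 were higher (1.68%, against 6.38%). Their median deviation was −0.11, 0.15 and −0.02 in control and −0.10, −0.43 and −0.23 with TPR A, so TPR A replicate 1 lay level with control replicate 1. NORAD, a cytoplasmic lncRNA of a single exon that sequesters the PUMILIO proteins, stood at 19.7, 22.8 and 25.05 FPKM in control and at 16.1, 7.87 and 19.9 FPKM with TPR A. TPR A replicate 3 lay above the lowest control, and the difference of −0.67 (SE 0.42, adjusted p 0.672, limma) did not pass. In a list of 10 lncRNAs known from the cytoplasm the median was −0.25 and none passed in the 9-library or the 25-library limma fit (2 at an unadjusted p below 0.05), with DANCR, a host gene of a small nucleolar RNA, at −0.95 (adjusted p 0.329, limma) and SNHG1, another, at −0.57.

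The replication-dependent histone mRNAs, a class by gene name, had a positive median. Most of their genes have no intron, but 6 of the 22, H2BC5 and H2AC6 among them, have annotated transcripts with more exons and were not counted among the intronless mRNAs above. RNA was selected for poly(A) tails, so the reads of this class are from transcripts that passed that selection. The processing signal of these genes is a stem of 6 base pairs with a loop of 4 bases, shown here because it is the feature that sets this class apart. The sequences are from the sense strand, 5′ to 3′, of GENCODE transcripts on GRCh37, with the loop in capitals.
H2BC5: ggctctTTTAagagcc
H2AC6: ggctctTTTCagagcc
H1-1: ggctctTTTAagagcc
H4C3: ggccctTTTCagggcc
The search was for GGNNNNTTNN followed by the reverse complement of its first 6 bases, on the sense strand only. It was found in 21 of the 22 replication-dependent histone mRNAs tested (95.5%, H2AC11 lacked it), in 2 of 11 other histone mRNAs (18.2%) and in 100 of 12345 mRNAs of the table (0.81%). In H2BC5 and H2AC6 1 of 2 annotated transcripts holds it, so these genes also have a transcript that ends elsewhere.

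H2BC5, a histone H2B, stood at 13.6, 11.8 and 14.97 FPKM in control and at 30.9, 32.7 and 34.6 FPKM with TPR A. H2AC6, a histone H2A, stood at 7.30, 7.61 and 9.03 FPKM in control and at 15.4, 21.2 and 24.3 FPKM with TPR A. Both sets of libraries lay apart, by 1.32 for H2BC5 (adjusted p 0.0799 with 9 libraries and 0.00362 with 25, limma) and by 1.36 for H2AC6 (adjusted p 0.132 with 9 and 0.0135 with 25). They were the 2 of 22 that rose in the 25-library fit (9.09%, against 0.794% of all genes), and none fell (against 0.575%). The median of the 22 was 0.57, with 86.4% of values above 0. The libraries overlapped, with a median deviation of 0.46, −0.08 and −0.36 in control and of 0.94, 0.80 and 0.14 with TPR A. The median was 1.04 in total and 1.28 in nuclear RNA, and 1.12 and 1.04 without control replicate 2.

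H1-1, a linker histone studied as an intronless mRNA, was at 3.02, 0.645 and 0 FPKM in control and at 2.02, 1.05 and 0.307 FPKM with TPR A. These values overlapped fully, and the fitted difference of 0.73 (SE 1.08, adjusted p 0.885, limma) became −0.57 without control replicate 3. H4C3, a histone H4, had the lowest difference of the group, −0.59. The 11 other histone genes, whose mRNAs are made outside S phase as well, had a median of −0.30 and 18.2% of values above 0. Of these H1-10, a linker histone from an intronless gene with a poly(A) tail, stood at 582, 468 and 389 FPKM in control and at 175, 309 and 169 FPKM with TPR A, a difference of −1.13 (adjusted p 0.311 with 9 libraries and 0.0449 with 25, limma).

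Gene lists by function were counted next. None had a member called in the 9-library limma fit except the 21 targets of NRF2, the regulator of the antioxidant response. Their median was −0.15, and HMOX1 was the only member called, where 0.0479% of all genes were called higher. FTH1, the ferritin heavy chain and another NRF2 target, stood at 4371, 5310 and 5038 FPKM in control and at 6408, 9671 and 8037 FPKM with TPR A, a difference of 0.74 (adjusted p 0.355, limma). For 25 ATF4 targets the median was −0.17 and for 19 heat shock genes −0.10, with none called in either limma fit. Of the ATF4 targets 1 had an unadjusted p below 0.05, with a lower value (4.0%, against 4.74% of all genes). Of the heat shock genes 0 did. Of 26 immediate early genes 2 rose in the 25-library fit (7.69%, against 0.794% of all genes), JUN and FOSL2, both subunits of AP-1. In this list 4 genes had an unadjusted p below 0.05 with a higher value (15.4%, against 5.15% of all genes) and 2 with a lower value (7.69%, against 4.74%). In every TPR A library 4 were higher than in any control (15.4%, against 6.38%) and 4 lower (15.4%, against 9.66%). The median of the list was 0.05. FOSL2 was at 80.3, 55.6 and 75.5 FPKM in control and at 129, 175 and 99.95 FPKM with TPR A, a difference of 0.96 (adjusted p 0.036, limma).

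The 39 mitosis genes had the lowest median of the functional lists, −0.38, with 2.56% of their values above 0. None was called in the 9-library or the 25-library limma fit, 6 had an unadjusted p below 0.05, all lower (15.4%, against 4.74% of all genes), and 9 were lower in every TPR A library than in any control (23.1%, against 9.66%). The median deviation was 0.09, 0.09 and −0.20 in control and −0.18, −0.48 and −0.39 with TPR A, so control replicate 3 lay level with TPR A replicate 1. KIF20A, a kinesin of cytokinesis, stood at 79.0, 68.2 and 76.4 FPKM in control and at 52.7, 53.1 and 40.5 FPKM with TPR A, a difference of −0.58 (adjusted p 0.34, limma). CDC25C, the phosphatase that activates CDK1, was at 17.7, 13.4 and 12.5 FPKM and at 7.22, 10.1 and 7.30 FPKM, a difference of −0.77 (adjusted p 0.355, limma). In total RNA the median of the list was −0.59, and −0.33 without control replicate 2. For 38 DNA replication genes the cytoplasmic median was −0.18.

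The genes of the translation and energy machinery, most of them short and highly expressed, had medians a little below 0. It was −0.20 for 85 cytosolic ribosomal proteins, −0.21 for 77 mitochondrial ribosomal proteins, −0.21 for 75 respiratory chain genes and −0.17 for 34 proteasome genes. Of the respiratory chain genes none was called in the 9-library or the 25-library limma fit. With a lower value, 2 had an unadjusted p below 0.05 (2.67%, against 4.74% of all genes). In every TPR A library 18 were lower than in any control (24.0%, against 9.66% of all genes and 16.3% of mRNAs from genes under 10 kb). Their median deviation was −0.01, 0.10 and −0.09 in control and −0.39, −0.03 and −0.20 with TPR A, so TPR A replicate 2 lay within the controls. For the cytosolic ribosomal proteins the median deviation was −0.59 in TPR A replicate 1, but 0.05 and −0.07 in replicates 2 and 3, and −0.09, 0.10 and −0.02 in control. RPL10L, an intronless retrocopy of RPL10 and uncertain for that reason, had the values 22.3, 26.99 and 22.9 FPKM in control and 9.04, 13.1 and 12.6 FPKM with TPR A, a difference of −1.02 (adjusted p 0.298, limma). GAPDH, the glycolytic enzyme often used as a reference, was at 11703, 8487 and 12245 FPKM in control and at 5614, 11681 and 6592 FPKM with TPR A, so that TPR A replicate 2 lay among the controls and the others far below (−0.45, adjusted p 0.782, limma).

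A smaller number of lists had positive medians. The 27 targets of p53, the tumour suppressor active in U2OS cells, had a median of 0.21 with 74.1% of values above 0. None was called in the 9-library or the 25-library limma fit. With a higher value, 2 had an unadjusted p below 0.05 (7.41%, against 5.15% of all genes). The median deviation was −0.10, −0.23 and 0.36 in control and 0.16, 0.25 and 0.21 with TPR A, so control replicate 3 lay above all TPR A libraries. ZMAT3, an RNA-binding target of p53, was at 11.2, 11.7 and 19.1 FPKM in control and at 23.7, 22.7 and 27.2 FPKM with TPR A, a difference of 0.89 (adjusted p 0.218, limma). The 32 extracellular matrix genes had a median of 0.15, which ran from −0.11 to 0.39 when a library was left out. COL18A1, the collagen that contains endostatin, was the 1 that rose in the 25-library fit (3.12%, against 0.794% of all genes). COL18A1 stood at 1.93, 1.69 and 2.54 FPKM in control and at 3.48, 4.43 and 4.02 FPKM with TPR A. The difference was 0.97 (adjusted p 0.0452, limma). RUNX2, the transcription factor of bone formation, stood at 9.22, 6.25 and 12.5 FPKM in control and at 18.7, 18.6 and 19.4 FPKM with TPR A, a difference of 1.11 (adjusted p 0.0376, limma, 25 libraries). Of 30 RNA decay genes 1 fell in the 25-library fit (3.33%, against 0.575% of all genes), UPF3A, a factor of nonsense-mediated decay. UPF3A fell by 1.05 on the log2 scale (adjusted p 0.0397, limma). The 17 transcripts known to be sensitive to nonsense-mediated decay had a median of −0.25.

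**Figure D5:**
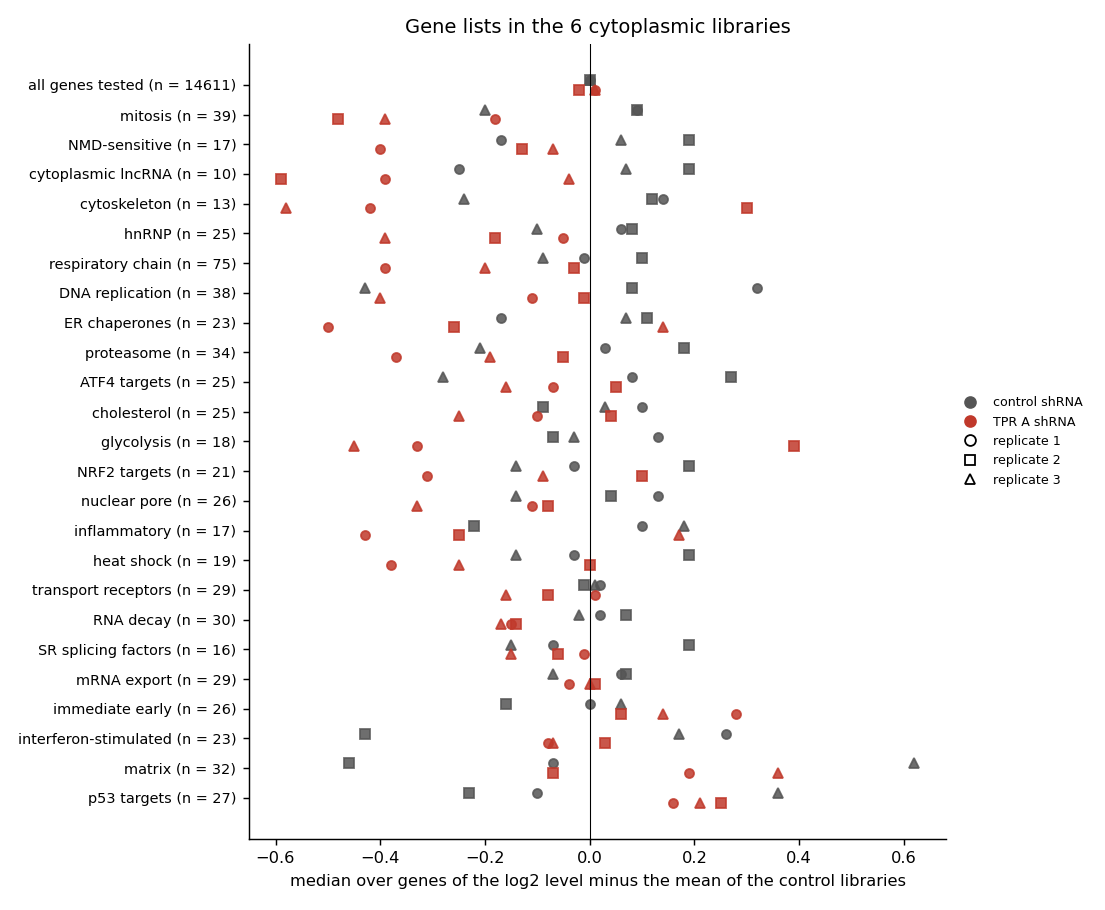
Median log2 deviation from the control mean for all genes tested and for the larger functional lists, with 1 point for each cytoplasmic library of control and TPR A cells. The 39 mitosis genes lie at −0.48 to −0.18 with TPR A and at −0.20 to 0.09 in control. The 27 p53 targets lie at 0.16 to 0.25 with TPR A and at −0.23 to 0.36 in control.

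To separate the cytoplasmic level from the total level, the difference between cytoplasmic and total RNA was compared between TPR A and control cultures. No gene passed an adjusted p of 0.05 in limma, 205 had an unadjusted p below 0.05 (1.4% of those tested), and the lowest adjusted p was 1.0. Without control replicate 2, whose total library stood apart, there was still none, with 194 at an unadjusted p below 0.05. The median of the intronless mRNAs was −0.29, and −0.41 without control replicate 2, against 0.02 and −0.02 for mRNAs with introns. For short genes it was −0.07 and −0.19, and for long genes 0.09 and 0.12.

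Per culture, relative to control replicates 1 and 3, the intronless mRNAs had a median deviation of this ratio of 0.02, −0.41 and −0.02 in control and of −0.40, −0.48 and −0.31 with TPR A, so control replicate 2 lay among the TPR A cultures and the other 2 controls apart from them. The replication-dependent histone mRNAs, whose cytoplasmic and total levels both had positive medians, had a ratio median of −0.36, and −0.50 without control replicate 2. Their deviations were 0.19, −0.51 and −0.19 in control and −0.84, −0.81 and −0.28 with TPR A. TPR A replicate 3 was close to control replicate 3 here.

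The 2 shRNAs against TPR were also compared directly in the cytoplasm, with no control library in the difference. SLC17A7, a vesicular transporter of glutamate at chr19:49932658-49945617 on the minus strand, was the 1 gene of the 14611 (0.00684%) to pass, and 1039 (7.11%) had an unadjusted p below 0.05. SLC17A7 stood at 15.4, 16.7 and 8.97 FPKM with TPR A, at 1.53, 2.01 and 1.53 FPKM with TPR D and at 7.41, 4.85 and 7.14 FPKM in control. The control libraries lay between the shRNAs, and TPR A exceeded TPR D by 2.91 (SE 0.30, adjusted p 0.0282, limma). Against the shared controls SLC17A7 differed by 1.09 for TPR A and by −1.82 for TPR D.

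TPR A and TPR D libraries of the same number went together, and in a fit blocked on that number 7 genes passed (0.0479%), 6 higher (0.0411%) and 1 lower (0.00684%) with TPR A. Beside SLC17A7, the difference was 1.96 for HMOX1 (adjusted p 0.0356, limma, blocked), 3.79 for SPINK6 (0.0219), 2.44 for PDLIM1, a protein of actin stress fibres (0.0219), 3.50 for ENSG00000227136 (0.0219), 1.46 for COX10, an enzyme of heme A synthesis (0.0433), and −1.48 for IFRD2 (0.0498). Of the genes called against control, CRYGS differed from the shared controls by 3.88 for TPR A and 4.04 for TPR D, MIR100HG by 1.71 and 1.90, LCTL by 1.83 and 0.60, and TMEM158 by −2.24 and −1.12. HMOX1 and IFRD2 differed between the shRNAs in the direction in which they differed between TPR A and control. COX10 had a mean of 15.5 FPKM in control, 13.9 FPKM with TPR A and 4.97 FPKM with TPR D. It differed from control by −0.12 for TPR A and by −1.58 for TPR D, so TPR D was the shRNA that stood apart.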

How the data were processed

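Poly(A)+ RNA of fractionated U2OS cells was sequenced from directional NEBNext libraries. Per the labels and the study's methods, the authors quantified it with Salmon against GENCODE on hg 19 and analysed it with DESeq2. The deposited values are FPKM per gene. Their column sums in the cytoplasm run from 1466468 to 2063354, so the deposited FPKM appear to have been scaled by size factors before deposit, and residual factors were 0.976 to 1.03. With 250 nucleotides subtracted from each transcript, 91.6% to 92.8% of the low values lay within 0.1 of whole reads, from which the depth per library was read.

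Each library was divided by its median-of-ratios factor over the genes tested, and log2(FPKM + 0.1) was fitted by limma 3.58.1 (R 4.3.3) over the 9 cytoplasmic libraries in 3 groups, with a trend in the prior variance. P-values were adjusted over the 14611 genes by the Benjamini-Hochberg method, and called genes have an adjusted p below 0.05. Fold changes on this scale understate the change of low genes. The p-values measure the spread between samples labelled as replicates. Structures came from GENCODE release 44 lifted to GRCh 37, which held 32776 of the gene identifiers, and 410 of the genes tested have none. In simulated data 25 of 100 genes changed by a log2 of 1 and 82 of 100 changed by 2 were recovered, with 4 false calls. The changed genes were drawn from those with a mean log2 level above 1, and the noise was independent between libraries. Recovery of genes near 0 and the shared deviations of same-numbered libraries were therefore not simulated.

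Named genes were up to 15 called in each direction whose groups did not overlap, the 5 with the lowest p in a direction with fewer than 5 called, the 3 with the lowest p of each list, all called members of a list, and the genes the study followed. The largest called by the 25-library fit were added later. The members, the lists and the tests were chosen with earlier results of these data known. Same-numbered TPR A and TPR D libraries deviated together (r of 0.397, 0.595 and 0.438), so that comparison is also given from a fit blocked on the number. Count models were not run, since no read counts are held here. Just above the minimum of 1 FPKM lay SSPN, C17orf67 and PCSK4, and just below it SH3BP5-AS1, ENSG00000259372 and MYOM2. Python 3.11.15, pandas 2.3.3, numpy 2.4.6 and matplotlib 3.10.9 were used.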

Additional observations from a re-analysis of the deposited data

Results flagged for a closer look

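SLC17A7 differed between the 2 shRNAs against TPR, by 2.91 on the log2 scale in the direct test of the 3 TPR A against the 3 TPR D cytoplasmic libraries (adjusted p 0.0282, limma). In the fit blocked on replicate number the adjusted p of SLC17A7 was 0.0227. Every TPR A library, from 8.97 to 16.7 FPKM, was above every control library, from 4.85 to 7.41 FPKM, and every TPR D library, at 2.01 FPKM or less, was below them.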

How the results depend on the processing

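The number of genes called differed between settings. Against 9 genes in the cytoplasm of TPR A cells, 200 passed with 25 libraries in the fit, 216 with these and correlated cultures, 91 with all 27, 4 with the 6 libraries alone, 5 with a minimum of 5 FPKM, 31 with no minimum, and 0 with replicates 2 and 3 alone, where 612 had an unadjusted p below 0.05 in limma. With 1 FPKM added before the logarithm 7 passed, and 4 of the 9 were among them, HMOX1, LCTL, PTPMT1 and TMEM158. With the minimum of 1 FPKM taken over the control and TPR A cytoplasmic libraries only, 6 passed. These were all among the 9, without CRYGS, ENSG00000257622 and MIR100HG. Leaving out a library gave 1 to 16. Against 1 gene between TPR A and TPR D, 142 passed with 25 libraries, 149 with correlated cultures, 93 with 27, 4 with a minimum of 5 FPKM, 29 with no minimum and 2 with 1 FPKM added before the logarithm, and 0 passed with the 6 libraries alone (865 unadjusted, limma) or with replicates 2 and 3 alone (571). Leaving out a library gave 0 to 4, the 4 without TPR A replicate 3. For the ratio of cytoplasmic to total RNA, 1 gene passed with no minimum and 0 to 1 when a culture was left out, the 1 without TPR A replicate 3.

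With the replicate block, 20 genes were called between TPR A and control, and 7 between TPR A and TPR D. The deviations of same-numbered control and TPR A libraries correlated at 0.185, 0.063 and 0.292, so the pairing of these groups rests on a number only.

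TPR, at −2.66, passed with 25 libraries (adjusted p 0.00132, and 0.000899 with correlated cultures), with 27 (0.00077) and with the block (0.0363), all in limma, and ranged from −3.02 to −2.16 when a library was left out. The median of the intronless mRNAs was −0.33 with a minimum of 5 FPKM and from −0.33 to −0.21 over all settings. That of the genes under 10 kb ran from −0.31 to −0.08 and that of the genes over 50 kb from 0.04 to 0.26. Of 2769 values of 127 named genes, 1 reversed, that of H1-1, with −0.57 to 1.89 when a library was left out, the negative value without control replicate 3. The cause was not tested for any of these. Differences of genes near 1 FPKM rest on few reads.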

Other observations

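Lists for other responses were also counted. For 23 interferon-stimulated genes the cytoplasmic median was 0.06, for 17 inflammatory genes −0.10, for 23 ER chaperones −0.18, for 18 glycolysis genes −0.15, for 25 cholesterol genes −0.16, for 16 SR proteins −0.05, for 25 hnRNP genes −0.21 and for 13 cytoskeleton genes −0.22, and none of these lists had a gene called in the 9-library limma fit. The numbers at an unadjusted p below 0.05 were, in this order, 3, 1, 3, 1, 1, 0, 2 and 1. Over all genes tested the share was 9.9%. Each TPR A library stood nearer to the TPR D library of the same number than to any other TPR A library. Their Spearman correlations over genes were 0.9775, 0.973 and 0.972 for replicates 1, 2 and 3. TPR A replicate 2 correlated with TPR A replicates 1 and 3 at 0.955 and 0.95, and those correlated with each other at 0.969.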
